A study of Mus with 96 samples.

Results

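The 10 genes described here encode enzymes of choline, methionine, and methyl group metabolism. They were taken by gene name (Chka, Pcyt1a, Pemt, Chdh, Bhmt, Dmgdh, Mat1a, Gnmt, Ahcy, and Cbs) from a liver count table of 55487 genes. All 10 were among the 15548 genes that reached 100 counts in total and were tested. Livers of 96 mice were measured by 3′ mRNA sequencing (BRB-seq), with 24 mice for each genotype and diet, 4 at each of 6 Zeitgeber times (ZT, hours after lights on). Hep-Bmal1KO mice carried Alb-Cre and 2 floxed Bmal1 alleles, and their Hep-Bmal1WT littermates carried the floxed alleles without Cre. Male and female C57BL/6J mice aged 8 to 10 weeks ate either normal chow (NC, 14% fat, 27% protein) or, for 2 weeks, a high-fat diet without choline (cdHFD, 60% fat, 9% protein, 2% cholesterol, 0.17% methionine). Alb drives Cre in hepatocytes, and whether the other cells of the liver kept Bmal1 was not tested here. By the labels the diets differ in choline, fat, protein, and carbohydrate at once, the methionine and cholesterol of NC are not given there, and the parts of the diet cannot be told apart here.

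Choline has a pair of fates in the liver. It can be phosphorylated and built into phosphatidylcholine, the main phospholipid of membranes and lipoproteins, or oxidized in mitochondria to betaine, which donates a methyl group for the remaking of methionine from homocysteine. Methionine is activated to S-adenosylmethionine, the methyl donor for most methyltransferases, and the homocysteine left after methyl transfer is either methylated again or passed to cysteine synthesis. Hepatocytes can also make phosphatidylcholine without dietary choline, by methylating phosphatidylethanolamine.

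The libraries held between 1861740 and 9718615 counts on genes, and the values below are CPM, the counts of a gene set against the total of its library, with TMM scaling. The TMM factors did not overlap between the diets, at 0.766 to 0.929 on NC and 1.04 to 1.35 on cdHFD. Every fold change between the diets thus includes this scaling, which weighs most on small falls, as in Pcyt1a, Pemt, and Chdh. Diet differences without scaling were not tested. By their clock genes and by other genes that differ between the genotypes, 7 libraries lay nearer to the other genotype than to their own label: 2 labelled Hep-Bmal1WT on NC, 2 Hep-Bmal1KO on NC, 2 Hep-Bmal1WT on cdHFD, and 1 Hep-Bmal1KO on cdHFD. Groups follow the labels, and counts and differences by genotype are given with and without these 7. The 7 were picked by genes that differ between the genotypes. Leaving them out thus tends by construction to widen genotype differences, including those in rhythm and in the diet effect. Smaller p-values without the 7 are therefore no independent check of a call. The 3′ counts of Arntl (Bmal1) give no check of the deletion, since they read the end of the transcript: they ranged from 0.210 to 26.1 CPM in Hep-Bmal1WT and from 0.253 to 13 in Hep-Bmal1KO on NC. Each column of the library plate held 1 genotype, 1 diet, and 1 pair of ZTs, so the plate column cannot be told apart from genotype, diet, or pair of ZTs. The mouse numbers in the labels also fell in a separate range for each ZT, and what their order means is not given. All 9 hepatocyte markers checked were found in every group.

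The diet moved all 10 genes in both genotypes. In Hep-Bmal1WT livers 9 fell and Chka rose (edgeR's quasi-likelihood test, Benjamini-Hochberg adjusted p under 0.05 over all genes), against a background of 55.7% of all genes called, 27% lower and 28.7% higher. In Hep-Bmal1KO livers, which share no mice with that comparison, the same 9 fell and Chka rose, where 61.9% of all genes were called, 29.6% lower and 32.4% higher. The median log2 fold change of the 10 genes was -0.63 in Hep-Bmal1WT and -1.02 in Hep-Bmal1KO, and over all genes it was 0.01 and 0.02. The 7 doubtful libraries made no difference to these counts: all 10 were called without them in either genotype.

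The drop was deepest in the gene that disposes of spare methyl groups. Gnmt (chr17:46725664-46729211, mm10), glycine N-methyltransferase, uses S-adenosylmethionine to make sarcosine and is abundant in hepatocytes. In Hep-Bmal1WT on NC it ranged from 389.6 to 2209.8 CPM with a median of 1444, and on cdHFD from 111 to 468 with a median of 281. Of the 24 mice on cdHFD, 20 lay below the lowest mouse on NC, and the overlap came from the 4 NC mice taken at ZT 10, described further on. The fall was 4.41-fold (log2 fold change -2.14 ± 0.10, standard error, adjusted p = 4.98e-25). In Hep-Bmal1KO it ranged from 526 to 2746 CPM on NC (median 1755) and from 76.7 to 439.6 on cdHFD (median 263), with no overlap, and fell 5.89-fold (-2.56 ± 0.11, adjusted p = 1.23e-25). Within every ZT of either genotype, the 4 mice on cdHFD lay below the 4 on NC. Over all genes and ZTs, such a gap was seen in 12.4% of Hep-Bmal1WT sets and 14.4% of Hep-Bmal1KO sets. How many of all genes kept all 24 mice of each diet apart was not counted, here or for the genes below.

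Ahcy (chr2:155059310-155074497), S-adenosylhomocysteine hydrolase, clears the product that inhibits methyltransferases and releases homocysteine. Its level in Hep-Bmal1WT was 375 to 1491 CPM on NC (median 927) and 223 to 481 on cdHFD (median 349). In Hep-Bmal1KO the ranges did not overlap, at 474 to 904 CPM on NC (median 666) and 191 to 437 on cdHFD (median 279.7). These were falls of 2.67-fold (-1.42 ± 0.08, adjusted p = 6.69e-21) and 2.42-fold (-1.28 ± 0.07, adjusted p = 2.15e-21).

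Cbs (chr17:31612623-31637233), cystathionine beta-synthase, commits homocysteine to cysteine synthesis. In Hep-Bmal1WT it ran from 170.1 to 621 CPM on NC (median 337) and from 80.6 to 275 on cdHFD (median 171), a fall of 2.10-fold (-1.07 ± 0.13, adjusted p = 7.25e-10). In Hep-Bmal1KO it ran from 302 to 709 CPM (median 570.0) and from 114 to 303 (median 226), a fall of 2.62-fold (-1.39 ± 0.07, adjusted p = 1.38e-23). In Hep-Bmal1WT 12 of 24 mice on cdHFD lay below all on NC, against 23 of 24 in Hep-Bmal1KO.

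Mat1a (chr14:41105012-41124428), the liver form of methionine adenosyltransferase, makes S-adenosylmethionine. It was 1431 to 3145 CPM on NC (median 2057) and 842 to 2205 on cdHFD (median 1494) in Hep-Bmal1WT, and 1209.7 to 4884 (median 1982) and 884 to 1852 (median 1266) in Hep-Bmal1KO. The ranges overlapped in both genotypes, and the falls were smaller, 1.54-fold (-0.62 ± 0.10, adjusted p = 7.57e-07) and 1.76-fold (-0.81 ± 0.12, adjusted p = 4.12e-08). Mat1a also differed by sex, as described below.

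On the oxidation side, Chdh (chr14:30008901-30040468), choline dehydrogenase, makes betaine aldehyde from choline in mitochondria. Its level was 62.97 to 166 CPM on NC (median 102) and 47.8 to 90.1 on cdHFD (median 73.1) in Hep-Bmal1WT, and it fell 1.44-fold (-0.52 ± 0.07, adjusted p = 2.20e-08). In Hep-Bmal1KO it was 55.4 to 111 CPM (median 77.7) and 47.2 to 76.4 (median 59.0), a fall of 1.29-fold (-0.37 ± 0.06, adjusted p = 6.84e-07). The ranges overlapped in both genotypes, and 2 of 24 mice on cdHFD in Hep-Bmal1WT and 9 of 24 in Hep-Bmal1KO lay below all on NC.

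Bhmt, betaine-homocysteine methyltransferase, passes a methyl group from betaine to homocysteine and leaves dimethylglycine, which Dmgdh, dimethylglycine dehydrogenase, turns into sarcosine. The genes lie near each other on chromosome 13, Bhmt at chr13:93616891-93637758 and Dmgdh at chr13:93674436-93752823, and their annotated spans do not overlap. Bhmt in Hep-Bmal1WT ranged from 676 to 4501 CPM on NC (median 1552) and from 522 to 1893 on cdHFD (median 1080.0), falling 1.55-fold (-0.63 ± 0.17, adjusted p = 0.00114). In Hep-Bmal1KO it ranged from 1458 to 8901 CPM on NC (median 3597) and from 428 to 1908 on cdHFD (median 1233), falling 2.90-fold (-1.54 ± 0.16, adjusted p = 4.13e-12). The cdHFD levels of both genotypes thus covered much the same range, and the NC levels did not.

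Dmgdh in Hep-Bmal1WT was 184 to 354 CPM on NC (median 266) and 102 to 217 on cdHFD (median 141), a fall of 1.88-fold (-0.91 ± 0.07, adjusted p = 4.69e-16). In Hep-Bmal1KO it was 271 to 639 CPM (median 349.5) and 109 to 203 (median 158), with no overlap, and fell 2.35-fold (-1.23 ± 0.07, adjusted p = 1.47e-21). Dmgdh and Gnmt were the genes whose diets stayed apart at all 6 ZTs in both genotypes. The Spearman rho of Bhmt with Dmgdh was 0.79 over all 96 libraries and 0.58, 0.60, 0.55, and 0.72 within the groups of 24 (Hep-Bmal1WT on NC and cdHFD, then Hep-Bmal1KO on NC and cdHFD), given as a description, since the mice of a group differ in ZT and sex.

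Of the genes that build phosphatidylcholine, Pemt (chr11:59970614-60046561), which methylates phosphatidylethanolamine, was 408 to 688 CPM on NC (median 515) and 302 to 475 on cdHFD (median 388) in Hep-Bmal1WT. The fall was 1.345-fold (-0.43 ± 0.05, adjusted p = 8.14e-10), and 18 of 24 mice on cdHFD lay below all on NC. In Hep-Bmal1KO it was 423 to 648 CPM (median 536) and 192 to 485 (median 381), falling 1.46-fold (-0.55 ± 0.07, adjusted p = 3.37e-09).

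Pcyt1a (chr16:32430921-32475065), the enzyme that makes CDP-choline, holds the rate-limiting step of the CDP-choline route. It ran from 27.6 to 46.4 CPM on NC (median 39.9) and from 23.8 to 36.7 on cdHFD (median 29.9) in Hep-Bmal1WT, a fall of 1.31-fold (-0.39 ± 0.05, adjusted p = 7.59e-09). The fall in Hep-Bmal1KO was nearly the same in size, 1.32-fold (-0.40 ± 0.06, adjusted p = 2.79e-08).

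Chka (chr19:3851585-3894369), choline kinase alpha, traps choline as phosphocholine at the entry to that route, and was the member that rose. In Hep-Bmal1WT it ranged from 18.7 to 158 CPM on NC (median 45.01) and from 22.9 to 253 on cdHFD (median 108), a rise of 1.82-fold (0.86 ± 0.26, adjusted p = 0.00417). In Hep-Bmal1KO it ranged from 17.97 to 145 CPM (median 81.02) and from 52.7 to 199.8 (median 132), a rise of 1.51-fold (0.59 ± 0.14, adjusted p = 3.28e-04). The sign of its diet difference in Hep-Bmal1WT changed with ZT. In Hep-Bmal1WT females alone the rise missed the threshold (0.72, adjusted p = 0.145), as it did in Hep-Bmal1KO males alone (0.38, adjusted p = 0.0648).

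**Figure D1:**
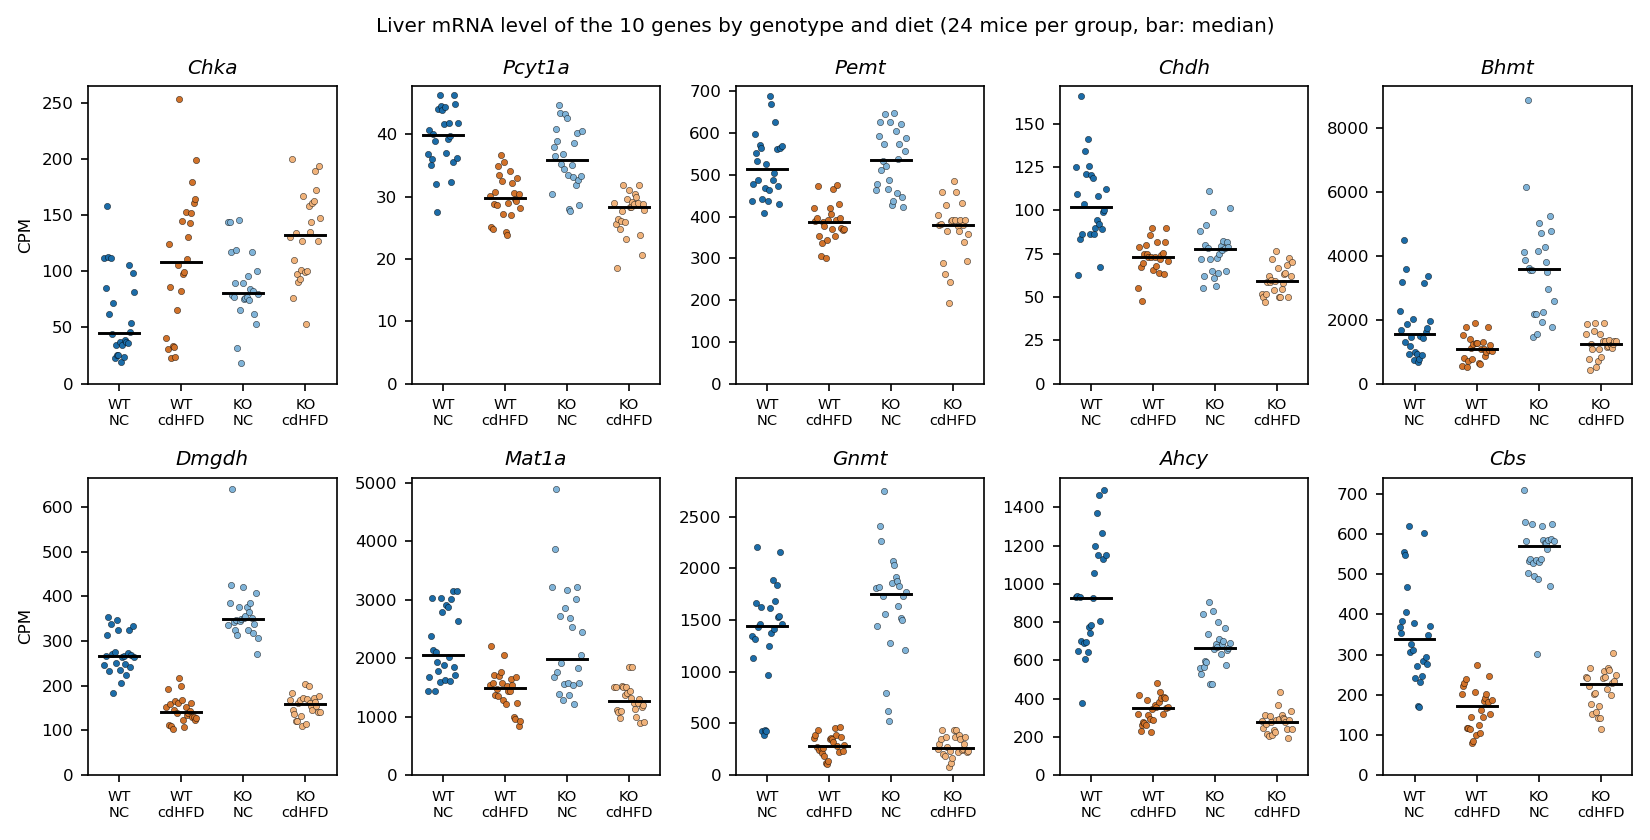
CPM (linear axis from 0) of each gene in every mouse, grouped by genotype and diet; the bar is the median of 24 mice. Gnmt, Ahcy, and Dmgdh of Hep-Bmal1KO show no overlap of the diets (the share of all genes without overlap was not counted), and Chka has its higher medians on cdHFD.

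Markers of cell types moved with the diet as well. All 9 hepatocyte markers fell in both genotypes (log2 fold changes from -2.34 to -0.50 in Hep-Bmal1WT), and their summed level went from a median of 159192 CPM (107637 to 218170) to 75702 (55195 to 91649). All 12 markers of Kupffer cells and macrophages rose, with a summed median of 562 CPM on NC (281 to 758) and 2534 on cdHFD (1351 to 3281). Of the 10 stellate cell and fibroblast markers 9 rose in Hep-Bmal1WT, with the summed median going from 276 to 718 CPM. In bulk liver, a change in the number of cells of a type and a change in marker RNA per cell cannot be told apart. The part of these shifts in the falls of the 9 genes was not tested.

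Of the other genes of the same pathways, in lists of 100 of which 97 were measured, 52 were lower and 24 higher in Hep-Bmal1WT, where 27% and 28.7% of all genes were. In Hep-Bmal1KO 54 were lower and 25 higher, where 29.6% and 32.4% of all genes were. Their median log2 fold changes were -0.29 and -0.40. All 7 genes of betaine and sarcosine oxidation fell in both genotypes, with list medians of -0.88 and -0.92. Among them were Pipox, which oxidizes sarcosine (376 ± 44.5 CPM, SD, on NC and 132 ± 21.3 on cdHFD in Hep-Bmal1WT, log2 fold change -1.51), and Sardh, sarcosine dehydrogenase (509 ± 84.5 and 205 ± 34.4 CPM, -1.31). Aldh7a1, an aldehyde dehydrogenase that accepts betaine aldehyde, stood among the named genes of this list in Hep-Bmal1KO (353 ± 37.4 and 154 ± 21.9 CPM, -1.20).

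The folate and glycine cleavage list had 13 of 22 genes lower and 5 higher in Hep-Bmal1WT. It was led by Aldh1l1, which oxidizes formyl-tetrahydrofolate (796 ± 154 and 233 ± 49.3 CPM, log2 fold change -1.77, and -2.25 in Hep-Bmal1KO). Mthfd1, an enzyme that interconverts folate one-carbon units, fell by 1.12 on the log2 scale in Hep-Bmal1WT. Of 13 genes of transsulfuration and cysteine use, 11 fell and 1 rose in Hep-Bmal1WT, and 10 fell and 1 rose in Hep-Bmal1KO. Of all genes, 27% fell and 28.7% rose in Hep-Bmal1WT, and 29.6% and 32.4% in Hep-Bmal1KO. In Hep-Bmal1WT 7 of 13 genes of CDP-choline and CDP-ethanolamine fell and 3 rose. Of 15 genes of the methionine cycle and methyltransferases 8 fell and 3 rose. Of 13 genes of polyamines and methylthioadenosine salvage 3 were lower and 4 higher (median 0.15), close to the shares of all genes. In Hep-Bmal1KO 4 of them were lower and 5 higher (median 0.008).

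The list of choline transport and release had 8 of 14 genes higher and 3 lower in Hep-Bmal1WT (median 0.36), where 28.7% of all genes were higher and 27% lower. In Hep-Bmal1KO 6 were higher and 4 lower (median 0.26), where 32.4% and 29.6% of all genes were. Gdpd1, a lysophospholipase D, rose from 0.83 ± 0.58 to 3.90 ± 1.30 CPM in Hep-Bmal1WT (2.29 ± 0.20, standard error). Mat2a, the form of methionine adenosyltransferase typical of tissues other than adult liver, rose from 57.3 ± 12.3 to 136 ± 28.6 CPM (1.25 ± 0.07) in Hep-Bmal1WT and by 1.18 ± 0.07 in Hep-Bmal1KO. That was opposite to Mat1a. Lpcat2, a lysophosphatidylcholine acyltransferase, rose by 1.92 ± 0.18, and Sat1, which acetylates polyamines, rose by 1.03 ± 0.07 in Hep-Bmal1WT.

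**Figure D2:**
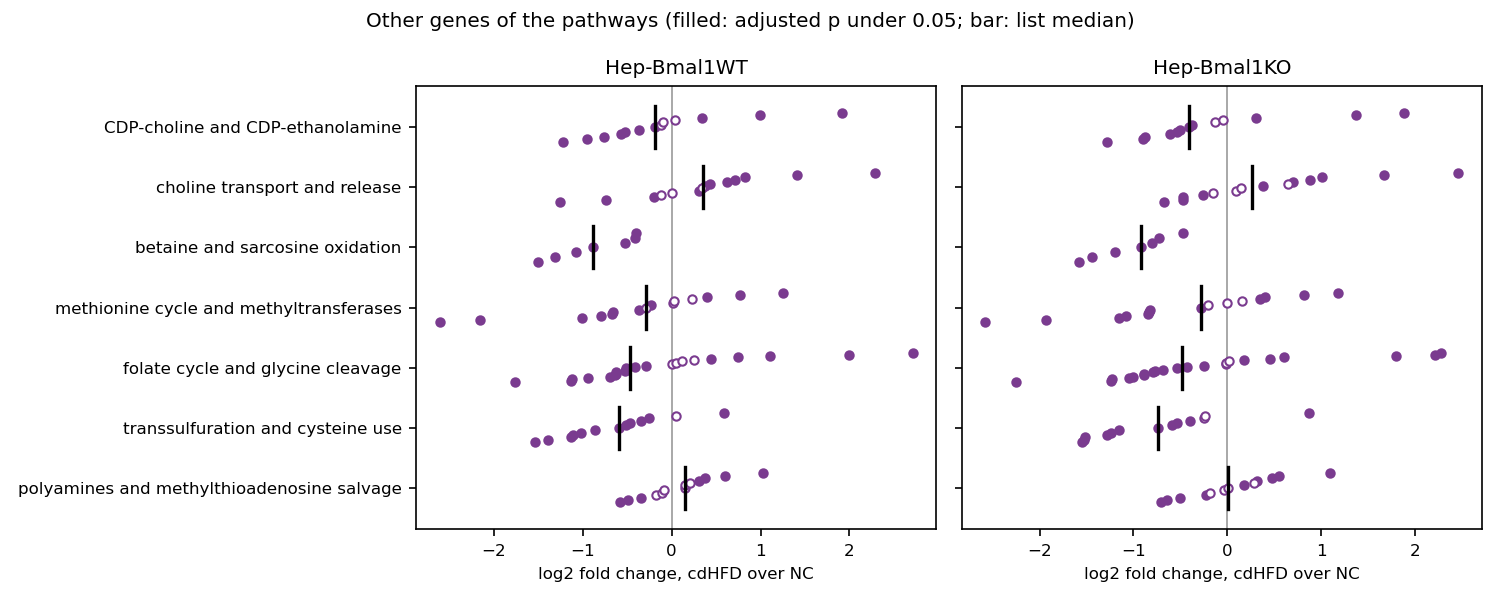
Log2 fold change, cdHFD over NC, of each measured gene of 7 pathway lists that exclude the 10 members, in Hep-Bmal1WT (left) and Hep-Bmal1KO (right). All 7 genes of betaine and sarcosine oxidation lie left of 0, and the list of choline transport and release has its median right of 0.

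By Spearman rho of log2 CPM over the 96 libraries, the genes most like Gnmt were Qdpr (0.94), Ass1 (0.93), and C8g (0.93). Those most like Ahcy were Galm (0.93), Ak3 (0.93), and Slc31a1 (0.92). For Dmgdh they were Cyp2c50 (0.90), Apoa2 (0.90), and Ndufv3 (0.89). The libraries share the diet contrast, so these values describe its pattern.

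Genotype was compared within each diet, and these comparisons use the same mice as those on diet. On NC, 7 of the 10 genes differed in Hep-Bmal1KO, 5 higher and 2 lower, where 12.6% of all genes were called, 7% higher and 5.61% lower. Without the 7 doubtful libraries the count was also 7. The median over the 10 genes was 0.20, and -0.01 over all genes. Bhmt differed most, 2.08-fold higher (1.06 ± 0.17, adjusted p = 1.61e-05, and 1.28 without the 7 libraries, adjusted p = 2.19e-08). Of its 24 Hep-Bmal1KO mice, 6 lay above every Hep-Bmal1WT mouse (6 of 22 without the 7). Such counts of mice were not made over all genes, here or for Dmgdh below.

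Cbs was 1.601-fold higher on NC (0.68 ± 0.10, adjusted p = 1.86e-06, 0.79 without the 7). Dmgdh was 1.33-fold higher (0.41 ± 0.06, adjusted p = 8.87e-06, 0.46 without the 7), with 10 of 24 mice above all Hep-Bmal1WT (10 of 22 without the 7), and Gnmt 1.29-fold higher (0.36 ± 0.09, adjusted p = 0.00463, 0.40 without the 7). Ahcy went the other way, 1.36-fold lower (-0.44 ± 0.09, adjusted p = 5.63e-04, -0.57 without the 7), and so did Chdh, 1.37-fold lower (-0.45 ± 0.08, adjusted p = 4.70e-05, -0.53 without the 7). Chka was 1.58-fold higher (0.66 ± 0.18, adjusted p = 0.00870, 0.88 without the 7), a call lost without replicate 1 of every group (adjusted p = 0.112) or without replicate 2 (adjusted p = 0.0502). Replicates 1 and 2 were mostly male and replicates 3 and 4 mostly female, so leaving 1 out also shifts the balance of the sexes.

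Pemt (0.03 ± 0.06, adjusted p = 0.798), Pcyt1a (-0.13 ± 0.06, adjusted p = 0.141), and Mat1a (0.01 ± 0.13, adjusted p = 0.974) did not pass on NC. In females alone 3 genes passed, Bhmt, Cbs, and Dmgdh. Some cell type markers differed with the genotype on NC as well. Of the 9 hepatocyte markers 2 were higher and 2 lower in Hep-Bmal1KO (3 and 2 without the 7). Alb (log2 fold change -0.83) and Hnf4a (-0.29) were lower, Asgr1 (0.28) and Fgb (0.31) higher, and the median over the 9 was 0.07. The summed level of the 9, which includes the fall of Alb, had a median of 159192 CPM in Hep-Bmal1WT and 118493 in Hep-Bmal1KO. Of the 5 cholangiocyte markers 2 were higher (also 2 without the 7), with summed medians of 51.1 and 89.9 CPM. None of the 12 macrophage, 10 stellate cell, 6 endothelial, 5 lymphocyte, or 3 neutrophil markers was called, with or without the 7. The part of these shifts in the genotype differences was not tested.

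On cdHFD 3 of the 10 genes differed, 1 higher and 2 lower, where 9.61% of all genes were called, 4.62% higher and 4.99% lower. Cbs was 1.29-fold higher in Hep-Bmal1KO (0.37 ± 0.09, adjusted p = 0.00397, 0.51 without the 7 libraries). Chdh was 1.23-fold lower (-0.30 ± 0.05, adjusted p = 6.96e-05, -0.31 without the 7). Ahcy was also 1.23-fold lower (-0.30 ± 0.07, adjusted p = 0.00290, -0.34 without the 7). Without replicate 2 of every group, Cbs (adjusted p = 0.0721) and Ahcy (adjusted p = 0.133) lost their calls, and in males alone Chdh (-0.25, adjusted p = 0.0637) and Cbs (0.38, adjusted p = 0.0873) did. Chka missed the threshold (0.42 ± 0.16, adjusted p = 0.0928). It passed without the 7 libraries (0.60, adjusted p = 0.00229), but the way these were picked favours such a call. With all libraries kept, edgeR's test called it with no count filter (0.42, adjusted p = 0.0252). It also did so with separate ZT terms for each genotype (0.45, adjusted p = 0.0178). No further one of the 13 alternatives called Chka. Beside these, 2 of 9 hepatocyte markers, Alb (-0.28) and Hnf4a (-0.25), were lower in Hep-Bmal1KO on cdHFD and none higher. The median log2 fold change over the 9 was 0.04. The summed median of the 9 was 75702 CPM in Hep-Bmal1WT and 64782 in Hep-Bmal1KO. Of the 12 macrophage markers 4 were higher and 1 lower, and 7 of 10 stellate cell, 3 of 5 cholangiocyte, and 2 of 3 neutrophil markers were higher, with none of 6 endothelial or 5 lymphocyte markers called. Without the 7 libraries 8 stellate cell and 4 cholangiocyte markers were higher, and the other counts were as before. The part of these shifts was not tested.

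**Figure D3:**
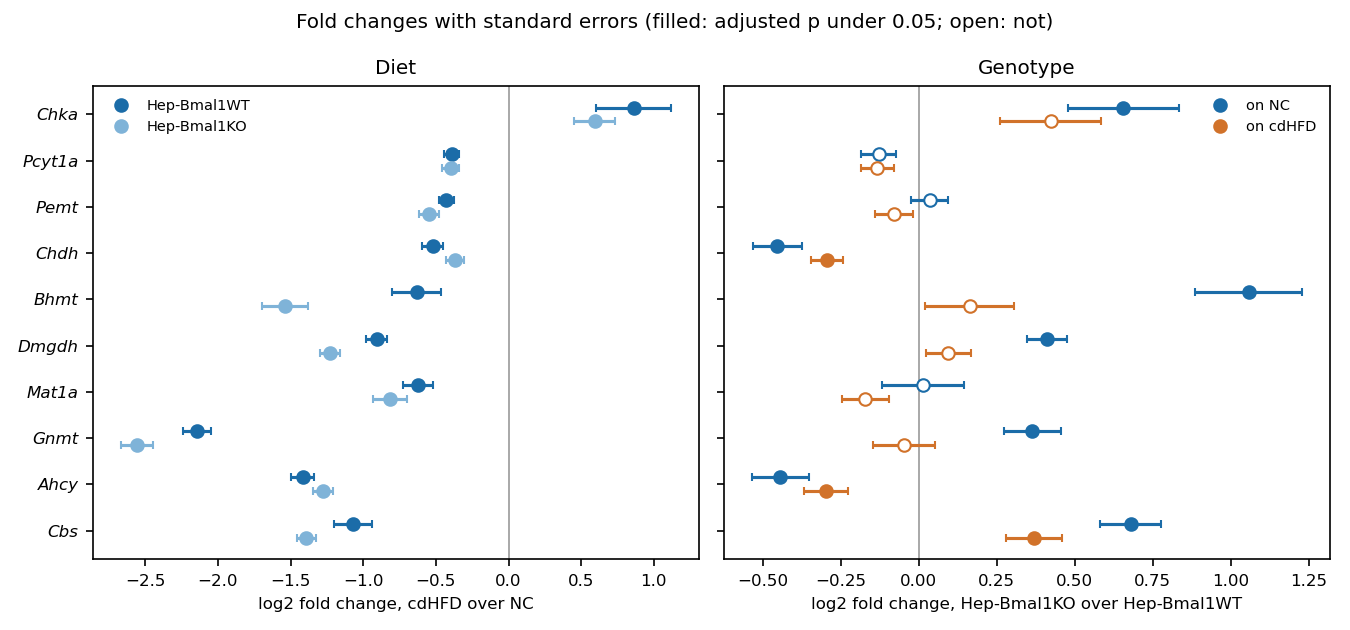
Log2 fold changes with standard errors: cdHFD over NC in each genotype (left) and Hep-Bmal1KO over Hep-Bmal1WT on each diet (right). On the left, Gnmt lies at -2.14 and -2.56 and Chka alone lies right of 0; on the right, Bhmt on NC lies farthest from 0.

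The test of genotype by diet asks whether the diet acted differently in the 2 genotypes. It called 1 of the 10 genes, Bhmt, against 2.23% of all genes, 0.817% with a higher and 1.41% with a lower diet difference in Hep-Bmal1KO. Its diet fold change was lower in Hep-Bmal1KO by -0.87 ± 0.24 on the log2 scale (adjusted p = 0.0261), and by -0.97 without the 7 libraries (adjusted p = 0.00325). The call did not hold without replicate 1 (-0.64, adjusted p = 0.339) or replicate 2 of every group (-0.84, adjusted p = 0.185), both of them mostly male. Dmgdh missed it (-0.32 ± 0.10, adjusted p = 0.0590) and passed in 3 of 10 alternatives. These were without the 7 libraries (adjusted p = 0.0359) and with sex as a covariate (-0.34, adjusted p = 0.0151). The last was without replicate 3 of every group (-0.45, adjusted p = 0.0174). Gnmt missed it with and without the 7 libraries (-0.39 ± 0.15, adjusted p = 0.146 and 0.0575). The way the 7 were picked favours smaller p-values without them in this test too. In Hep-Bmal1KO the diet difference of Bhmt was -2.04 in males and -0.99 in females, and in Hep-Bmal1WT -0.51 and -0.66. The difference between these 4 values was not tested.

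Among other genes of the pathways on NC, 20 of 97 were higher and 11 lower in Hep-Bmal1KO, where 7% and 5.61% of all genes were. Without the 7 libraries 28 were higher and 15 lower, where 9.26% and 7.83% of all genes were. The 8 named here were called in both. Bhmt2, a relative of Bhmt that methylates homocysteine from S-methylmethionine, rose from 170.2 ± 40.9 to 216 ± 53.3 CPM (SD), and Gldc, glycine decarboxylase, from 103 ± 34.6 to 142 ± 26.5. Slc44a1, a choline transporter, and Aldh9a1, which makes betaine from its aldehyde, were higher by 0.39 ± 0.06 and 0.32 ± 0.06 on the log2 scale (standard error). As3mt and Inmt, small-molecule methyltransferases, fell by 1.04 and 0.68, Gpcpd1, which cleaves glycerophosphocholine, by 0.69, and Etnk2, an ethanolamine kinase, by 0.30.

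On cdHFD 5 of these 97 genes were higher and 10 lower, where 4.62% and 4.99% of all genes were. Without the 7 libraries 11 were higher and 13 lower, where 6.55% and 6.46% of all genes were, and the 8 named here were again called in both. Chpt1, which joins CDP-choline to diacylglycerol, fell from 119 ± 24.8 to 83.8 ± 19.7 CPM, and Sardh from 205 ± 34.4 to 161 ± 31.2. Azin1, a regulator of polyamine synthesis, fell by 0.38 and As3mt by 0.41 on the log2 scale. Got1, an aspartate aminotransferase, rose by 0.61 ± 0.14, with Slc44a3 (0.37 ± 0.08), Tpmt (0.37 ± 0.06), and Pnpla7 (0.28 ± 0.07).

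Time of day was tested with a cosine and a sine term of 24 h in each group of 24 mice. As given above, ZT cannot be told apart from the range of mouse numbers, nor the pair of ZTs from the plate column. In Hep-Bmal1WT on NC 5 of the 10 genes were rhythmic, against 19.1% of all genes, and on cdHFD 3 were, against 14.6%. In Hep-Bmal1KO none was on NC, against 4.34% of all genes, and 1, Cbs, on cdHFD, against 3.83%. No member of Hep-Bmal1KO on NC reached an unadjusted p under 0.05. Several of these calls did not hold without 1 replicate of every group, which also shifts the balance of the sexes. Gnmt on NC missed the threshold each time (adjusted p from 0.0861 to 0.171), Cbs on NC without replicate 1, 2, or 3 (0.0501 to 0.107), and Bhmt on NC without replicate 3 (0.0595). On cdHFD in Hep-Bmal1WT, Chka missed it without replicate 1, 2, or 4 (0.0966 to 0.120), Gnmt without replicate 1 or 2 (0.105 to 0.149), and Cbs without replicate 2 or 4 (0.174 to 0.365). The amplitudes and peaks below come from a cosine fitted to log2 CPM, each with its standard error, and the p-values from edgeR's quasi-likelihood test.

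Chka had the widest swing. In Hep-Bmal1WT on NC it peaked at ZT 1.11 ± 0.56 h with an amplitude of 1.01 ± 0.15 (adjusted p = 8.12e-05). The 4 mice at ZT 2 had 84.99, 112, 113, and 158 CPM, and those at ZT 10 had 23.2, 25.5, 25.7, and 34.3. On cdHFD the amplitude was 1.04 ± 0.21 and the peak stood at ZT 17.7 ± 0.79 h (adjusted p = 0.0151), in the dark phase.

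On cdHFD the lowest values of Chka came at ZT 6, at 22.9, 23.3, 32.8, and 33.7 CPM, and the highest as a group at ZT 22, at 161, 164, 179.9, and 199. Its 24 h profile differed between the diets in Hep-Bmal1WT (adjusted p = 3.63e-04, and 4.55e-06 without the 7 libraries), where 6.19% of all genes were called. At ZT 6 Chka was 2.57-fold lower on cdHFD (-1.36 ± 0.37, adjusted p = 0.00320), and at ZT 10 it was 4.66-fold higher (2.22 ± 0.38, adjusted p = 2.73e-06). At ZT 14 the rise was 4.35-fold (adjusted p = 7.96e-06). The direction of the diet difference thus turned between neighbouring times, with no overlap of the diets at either ZT 6 or ZT 10.

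In Hep-Bmal1KO the amplitude of Chka was 0.21 ± 0.20 on NC (adjusted p = 0.797) and 0.31 ± 0.12 on cdHFD (adjusted p = 0.197), and the diet difference passed at ZT 22 alone (2.18-fold, adjusted p = 0.0119). Its profile was not called different between the genotypes on NC (adjusted p = 0.161), but was without the 7 libraries (adjusted p = 5.48e-04). Several of those libraries stood at the edge of their groups in Chka: the doubtful Hep-Bmal1WT mouse at ZT 18 on NC had 106 CPM, where the other 3 had 35.7, 37.4, and 38.6, and the doubtful Hep-Bmal1KO mouse at ZT 10 on NC had 17.97, where the other 3 had 65.4, 89.6, and 145. On cdHFD the doubtful Hep-Bmal1WT mouse at ZT 10 had 253 CPM, and the others 65.4, 82.2, and 105.

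Cbs was rhythmic on both diets in Hep-Bmal1WT. On NC it peaked at ZT 3.72 ± 0.89 h (amplitude 0.48 ± 0.11, adjusted p = 0.0147), with 405, 468, 548, and 621 CPM at ZT 6 and 170.1, 172, 242, and 271 at ZT 14. On cdHFD the peak was at ZT 21.9 ± 1.02 h (0.44 ± 0.12, adjusted p = 0.0370), with 202, 221, 228, and 239 CPM at ZT 2 and 80.6, 85.8, 99.3, and 207 at ZT 10. The last of these values belonged to the doubtful library. The profiles differed between the diets (adjusted p = 0.0486, and 9.23e-06 without the 7 libraries), a call at the edge of the threshold that another scaling took away (adjusted p = 0.0524), as did leaving out replicate 1, 2, or 3 of every group (adjusted p from 0.0702 to 0.319).

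The diet difference of Cbs in Hep-Bmal1WT was accordingly uneven over the day, 4.16-fold lower at ZT 6 (-2.05 ± 0.23, adjusted p = 7.20e-12) and 1.29-fold lower at ZT 14 (-0.37 ± 0.22, adjusted p = 0.222). In Hep-Bmal1KO it lay between 2.23-fold and 3.03-fold lower at the 6 ZTs. Cbs of Hep-Bmal1KO on cdHFD peaked at ZT 21.6 ± 0.86 h (0.34 ± 0.08, adjusted p = 0.0247), a call lost without replicate 2, 3, or 4 of every group (adjusted p from 0.0659 to 0.1996).

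**Figure D4:**
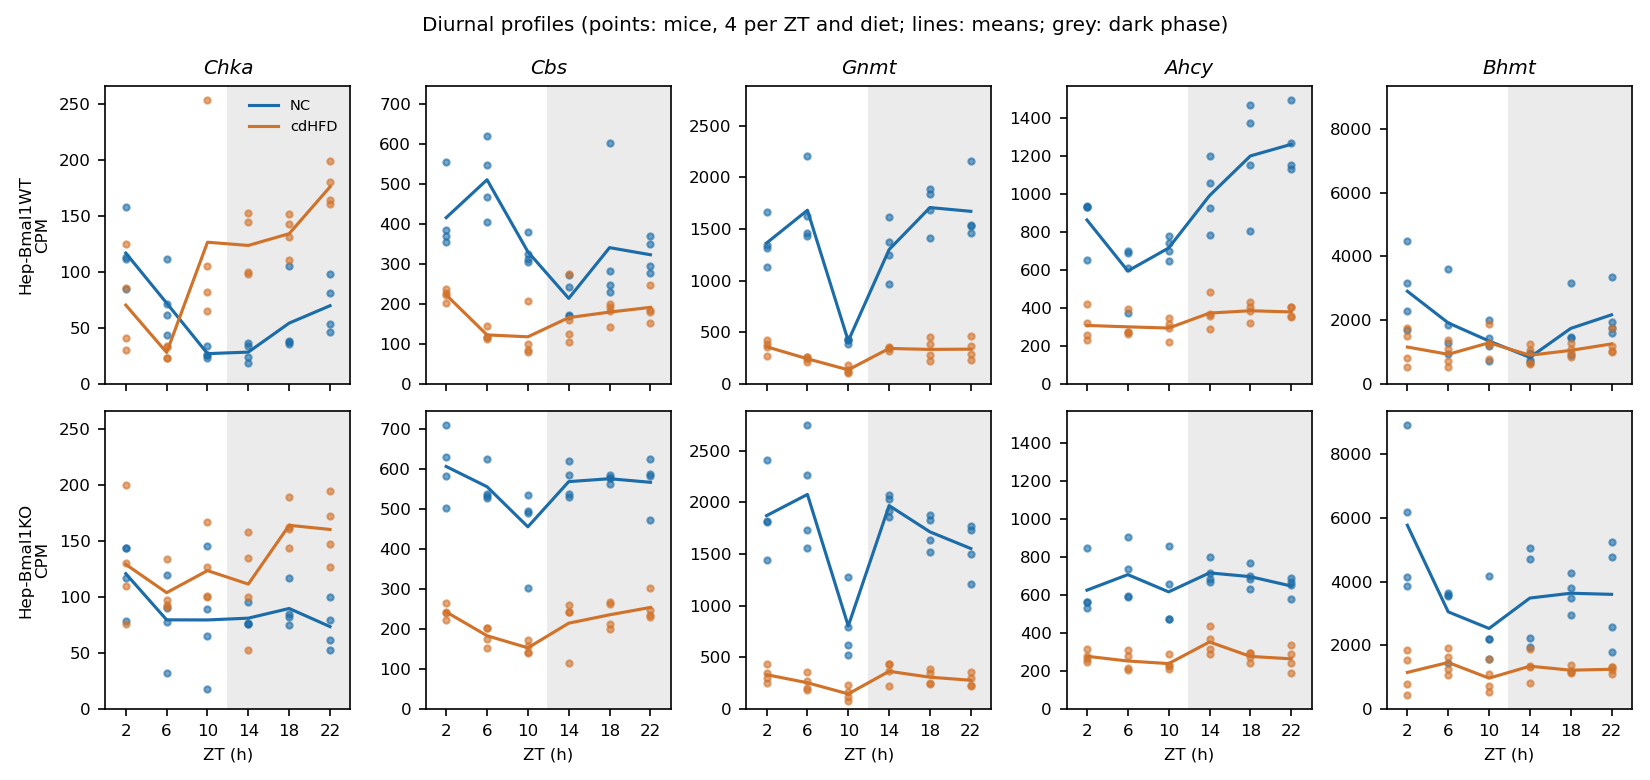
CPM against ZT in hours for Chka, Cbs, Gnmt, Ahcy, and Bhmt, in Hep-Bmal1WT (top) and Hep-Bmal1KO (bottom); points are mice, lines means of 4, and the dark phase is shaded. The Chka lines of the diets cross between ZT 6 and ZT 10 in Hep-Bmal1WT, and Gnmt is lowest at ZT 10 in every group.

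Gnmt had a narrow trough rather than a smooth wave. In Hep-Bmal1WT on NC the mice at ZT 10 had 389.6, 422, 423, and 433 CPM, and all 20 mice at other times had 968 or more. On cdHFD those at ZT 10 had 111, 121, 133, and 186 CPM, again below all others, of which the lowest had 212. In Hep-Bmal1KO on NC they had 526, 619, 794, and 1275 CPM, and on cdHFD 76.7, 118, 163, and 229.7, with means at ZT 10 below those of the other 5 times in each diet. A cosine caught this poorly: Gnmt passed in Hep-Bmal1WT on NC (adjusted p = 0.0482, and 0.0586 without the 7 libraries) and cdHFD (adjusted p = 0.0147) but not in Hep-Bmal1KO (adjusted p = 0.722 and 0.379), whereas a test with ZT as a factor called it in Hep-Bmal1KO on both diets (adjusted p = 0.00120 and 0.0205).

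Ahcy rose through the dark phase in Hep-Bmal1WT on NC, with a peak at ZT 19.3 ± 0.59 h (amplitude 0.54 ± 0.08, adjusted p = 1.54e-04). It had 375, 608, 691, and 701 CPM at ZT 6 and 1130.4, 1149, 1267, and 1491 at ZT 22. In Hep-Bmal1KO on NC the amplitude was 0.06 ± 0.07 (adjusted p = 0.872), with 591, 594, 737, and 904 CPM at ZT 6 and 577, 654, 666, and 689 at ZT 22. The genotypes thus overlapped at ZT 6 and stood apart at ZT 22. The share of all genes whose genotypes stood apart at 1 ZT was not counted. The difference of the profiles on NC passed for Ahcy alone of the 10 genes (adjusted p = 0.0263, and 0.0179 without the 7 libraries), where 0.392% of all genes were called. It missed the threshold under a stricter count filter (adjusted p = 0.0700) and without any 1 replicate of every group (adjusted p from 0.106 to 0.281).

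Without the 7 libraries Chka and Cbs joined Ahcy as called for rhythm by genotype on NC (Cbs adjusted p = 2.17e-04). Clock genes helped to pick the 7, so their removal favours such calls. On cdHFD none of the 10 was called for rhythm by genotype, against 0.424% of all genes, and the smallest unadjusted p was 0.0310, for Chka. Neither was any called for rhythm by diet in Hep-Bmal1KO, against 0.907%, where 1 member, Pcyt1a, had an unadjusted p under 0.05 (0.0328).

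Bhmt in Hep-Bmal1WT on NC peaked at ZT 1.07 ± 0.90 h (amplitude 0.73 ± 0.17, adjusted p = 0.00606), with 1687, 2276, 3175, and 4501 CPM at ZT 2 and 676, 767, 928, and 974 at ZT 14. In Hep-Bmal1KO the mice at ZT 14 on NC had 1939.5, 2229, 4712, and 5046 CPM, all above the Hep-Bmal1WT mice of that time. How many of all genes had such a gap between the genotypes was not counted. On cdHFD the amplitude in Hep-Bmal1WT was 0.09 ± 0.16 (adjusted p = 0.902), and the test of the difference between the diets was not passed (adjusted p = 0.145). The diet lowered Bhmt in Hep-Bmal1WT at ZT 2 (2.51-fold, adjusted p = 0.00725) and ZT 6 (2.05-fold, adjusted p = 0.0377) and not detectably at the other 4 times, while in Hep-Bmal1KO it was lower at all 6, from 2.09-fold to 5.01-fold.

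Over the 60 pairs of gene and ZT, the diet lowered 43 and raised 4 in Hep-Bmal1WT, where 13.8% and 14.5% of all tests were called, and lowered 44 and raised 1 in Hep-Bmal1KO, where 15.5% and 16.6% were. Gnmt, Ahcy, and Dmgdh were lower at all 6 ZTs in both genotypes. Pemt was lower at 5 of 6 in each, and Mat1a at 3 of 6. All 4 mice on cdHFD lay below all 4 on NC at 6 ZTs for Gnmt and Dmgdh in both genotypes, and at 5 ZTs in Hep-Bmal1WT and 6 in Hep-Bmal1KO for Ahcy and Cbs. Over all genes and ZTs, such a gap was seen in 12.4% of Hep-Bmal1WT sets and 14.4% of Hep-Bmal1KO sets. For Bhmt it was seen at 0 ZTs in Hep-Bmal1WT and at 5 in Hep-Bmal1KO. Chka had the opposite gap, all 4 on cdHFD higher, at 4 ZTs in Hep-Bmal1WT and 2 in Hep-Bmal1KO, where 14.1% and 16.3% of sets had it. Pemt, Chdh, Pcyt1a, Mat1a, and Dmgdh were rhythmic in no group, with amplitudes between 0.04 and 0.23.

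Sex was balanced in all groups but Hep-Bmal1WT on cdHFD at ZT 14, which held 1 female. Over both diets 4 of the 10 genes were higher in females, Mat1a (1.32-fold, 0.40 ± 0.07, adjusted p = 3.30e-06), Pemt (1.17-fold, 0.22 ± 0.04, adjusted p = 2.15e-06), Dmgdh (1.15-fold, adjusted p = 5.13e-04), and Ahcy (1.13-fold, adjusted p = 0.0207), and none was lower, where 15.9% of all genes were called, 8.24% higher and 7.63% lower. The call on Ahcy was lost without replicate 1, 2, or 3 of every group (adjusted p from 0.0764 to 0.178).

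The sex difference of Mat1a depended on the diet. On NC males ranged from 1209.7 to 3206 CPM (median 1613, n = 24) and females from 1910.4 to 4884 (median 2865, n = 24). On cdHFD males ranged from 884 to 1759 CPM (median 1363, n = 25) and females from 842 to 2205 (median 1402, n = 23). The female median was the higher on NC in both genotypes. On cdHFD the pooled medians combined opposite orders, 1535 CPM in males and 1347 in females of Hep-Bmal1WT against 1115 and 1450.3 in Hep-Bmal1KO. Mat1a was the 1 member called for diet by sex (-0.69 ± 0.12, adjusted p = 1.09e-05), against 6.66% of all genes, 2.91% with a higher and 3.75% with a lower diet difference in females.

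In Hep-Bmal1WT the diet difference of Mat1a was -0.16 in males (adjusted p = 0.103) and -0.99 in females (adjusted p = 5.52e-07), and in Hep-Bmal1KO -0.49 (adjusted p = 9.71e-04) and -0.997 (adjusted p = 7.81e-10). Pemt had 21 of 24 females above the highest male on NC, with males at 408 to 538 CPM and females at 469 to 688. On cdHFD no female did, with males at 192 to 485 and females at 294 to 475, but its test of diet by sex missed the threshold (-0.19 ± 0.07, adjusted p = 0.0990). Females above every male were not counted over all genes. Gnmt also missed the threshold for diet by sex (-0.42 ± 0.15, adjusted p = 0.0641), but passed in 3 of 9 alternatives. These were DESeq2's test (-0.43, adjusted p = 0.0400) and edgeR's with no count filter (-0.43, adjusted p = 1.76e-04). The last was edgeR's test without replicate 1 of every group (-0.52, adjusted p = 0.0442).

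**Figure D5:**
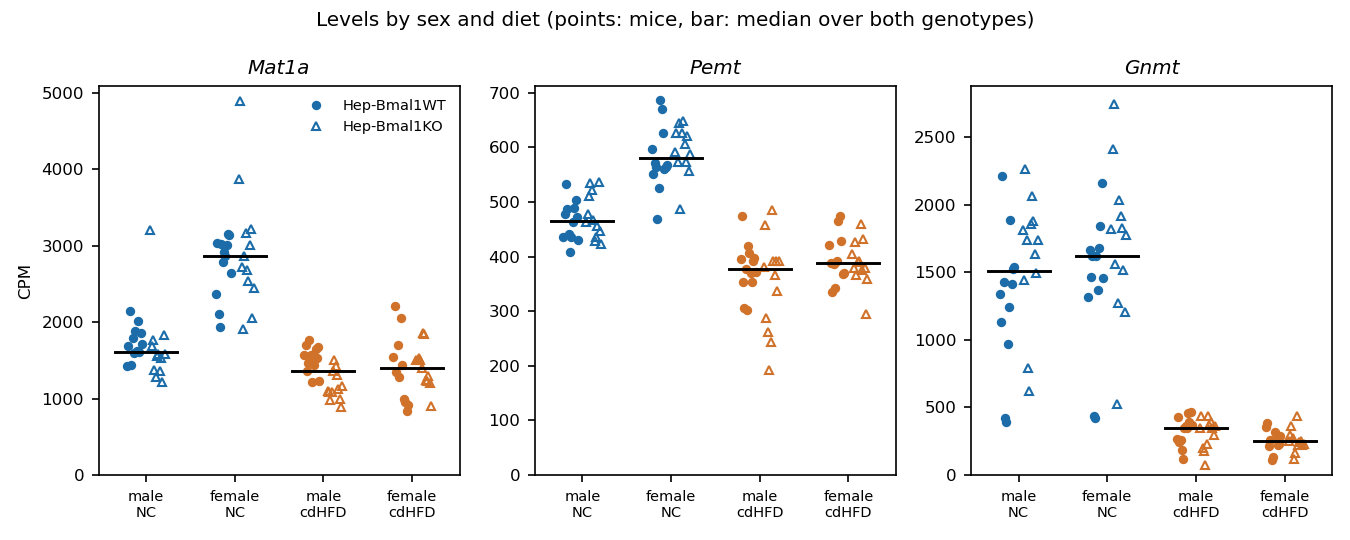
CPM (from 0) of Mat1a, Pemt, and Gnmt by sex and diet; points are mice, filled circles Hep-Bmal1WT and open triangles Hep-Bmal1KO, and bars medians over both genotypes. The Mat1a medians are 1613 and 2865 for males and females on NC and 1363 and 1402 on cdHFD.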

How the data were processed

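The deposited table held raw gene counts from 3′ mRNA sequencing (BRB-seq) of 96 livers. Per the submitters' processing notes and the study's methods, STAR was the authors' aligner and mm10 their genome, and the counting on genes names both HTSeq and featureCounts. Versions, and whether molecular identifiers were collapsed, are not given in the sources used here. No value column of the table was left unused (0 columns).

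Counts were analysed in R 4.3.3. The filter kept 15548 genes whose counts in all 96 libraries added up to 100 or more, TMM scaling was applied, and edgeR 4.0.16 quasi-likelihood tests were adjusted by Benjamini-Hochberg over all kept genes, with a threshold of 0.05. Diet and genotype were each tested with ZT in the model. Rhythms were tested with a cosine and a sine of 24 h, and amplitudes and peak times came from a cosine fit to log2 CPM (prior count 2). CPM values are TMM-scaled. The scripts were checked on simulated data. Libraries held 1861740 to 9718615 counts, so counting error is larger for low genes. A 3′ count does not measure length, and levels were compared within a gene. Gene spans are from RefSeq on GRCm38.p6, the mm10 build. Promoter sequences were not analysed here.

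Groups follow the labels, replicates were numbered in accession order, and the p-values measure the spread between these mice. The text names all 10 members, the pathway genes with the smallest p (up to 4 per direction and comparison), and the 3 genes most like each of the 3 members with the smallest diet p. The members and the gene lists were chosen with earlier results of these data known. Alternatives were DESeq2 1.42.0, DESeq2 size factors, other count filters, sex as a covariate, and each sex alone. Further ones were ZT as a factor and separate ZT terms for each diet or genotype. Others left out 1 replicate of every group or the 7 libraries nearer to the other genotype. The last of these is not independent of the genotype tests, since genes that differ between the genotypes picked the 7.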

Additional observations from a re-analysis of the deposited data

Results flagged for a closer look

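In 15 of 240 sets of 4 mice (each gene in each group), 1 mouse stood farther from the other 3 than Dixon's 95% limit allows, and chance gives about 1 in 20. Of these, 5 were values of the 7 libraries that lay nearer to the other genotype. In those, Bhmt in Hep-Bmal1KO on NC at ZT 6 (replicate 4) was 1458 CPM, with the nearest mouse at 3545. Chka and Cbs in Hep-Bmal1WT on NC at ZT 18 (replicate 4) were 106 and 602 CPM, with the nearest at 38.6 and 283. Cbs was 207 CPM in Hep-Bmal1WT on cdHFD at ZT 10 (replicate 3), with the nearest at 99.3, and 114 in Hep-Bmal1KO on cdHFD at ZT 14 (replicate 1), with the nearest at 242.

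The other 10 came from libraries that matched their labels. Pemt was 397 CPM in Hep-Bmal1WT on cdHFD at ZT 22 (replicate 1). Chka was 95.9 CPM in Hep-Bmal1KO on NC at ZT 14 (replicate 4) and 134 on cdHFD at ZT 6 (replicate 1). Gnmt was 2161 CPM in Hep-Bmal1WT on NC at ZT 22 (replicate 3). Ahcy was 649 CPM in Hep-Bmal1WT on NC at ZT 2 (replicate 3, the lowest of its group), 392 in Hep-Bmal1WT on cdHFD at ZT 6 (replicate 4), and 844 in Hep-Bmal1KO on NC at ZT 2 (replicate 3). Cbs was 555 CPM in Hep-Bmal1WT on NC at ZT 2 (replicate 4), 145 on cdHFD at ZT 6 (replicate 4), and 624 in Hep-Bmal1KO on NC at ZT 6 (replicate 3).

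In 5 results the effect differed between groups by a test of the difference itself. The diet difference of Bhmt was lower in Hep-Bmal1KO (-0.87, adjusted p = 0.0261), and that of Mat1a was lower in females (-0.69, adjusted p = 1.09e-05). The 24 h profiles of the diets in Hep-Bmal1WT differed for Chka (size of the difference 1.59 on the log2 scale, adjusted p = 3.63e-04) and Cbs (0.58, adjusted p = 0.0486), and those of the genotypes on NC differed for Ahcy (0.52, adjusted p = 0.0263).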

How the results depend on the processing

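The 10 diet calls in each genotype held under every alternative except each sex alone, as given above for Mat1a and Chka. None of these alternatives left the libraries without scaling, and the scaling factors differed between the diets. Counts that moved by over 1.5 times follow, and where no reason is given the cause was not tested. For genotype on NC, females alone gave 3 members and 578 genes (fewer mice). For genotype on cdHFD, males alone gave 802 genes and females alone 647. For genotype by diet, leaving out the 7 libraries gave 2 members and 817 genes, and sex as a covariate gave 2 members, Bhmt and Dmgdh in each. For diet by sex, no count filter gave 3 members (Mat1a, Bhmt, and Gnmt) and DESeq2 gave 2 (Mat1a and Gnmt). For rhythm in Hep-Bmal1KO on NC, genes numbered 1401 at an unadjusted p under 0.01, 1149 by DESeq2, and 2049 with ZT as a factor, which called 1 member. On cdHFD they were 1316 (2 members), 1045, and 2068 (2 members). For rhythm by diet, DESeq2 size factors gave 1 member in Hep-Bmal1WT, and in Hep-Bmal1KO no filter gave 226 genes, DESeq2 344, and sex as a covariate 223. For rhythm by genotype on NC, a filter of 10 counts in 24 libraries gave 0 members and 0 genes, no filter 143 genes, and leaving out the 7 libraries 3 members and 179 genes. On cdHFD these filters gave 9 and 175 genes, and DESeq2 22.

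Leaving out 1 replicate of every group leaves 3 mice per set. Replicates 1 and 2 were male and replicates 3 and 4 female in most groups, so this also shifts the balance of the sexes. The order was reversed on cdHFD at ZT 2, and replicate 3 of Hep-Bmal1WT on cdHFD at ZT 14 was male. The lowest and highest counts without 1 replicate were as follows, each beside the full count. Genotype on NC gave 940 to 1630 genes (1960) and 6 to 8 members, and on cdHFD 522 to 1376 (1494) and 1 to 4 members. Genotype by diet gave 70 to 268 genes (347) and 0 to 2 members. Diet by sex gave 374 to 736 (1036) and 1 to 2 members, and sex 1461 to 1813 (2468) and 3 to 4 members. Rhythm in Hep-Bmal1WT gave 1462 to 1984 genes on NC (2969) with 2 to 4 members, and 902 to 1494 on cdHFD (2264) with 0 to 3. In Hep-Bmal1KO it gave 155 to 202 (675) on NC, and 156 to 308 (596) with 0 to 1 members on cdHFD. Rhythm by diet gave 348 to 534 (963) with 1 to 2 members in Hep-Bmal1WT and 3 to 17 (141) in Hep-Bmal1KO. Rhythm by genotype gave 1 to 38 (61) with 0 members on NC and 12 to 35 (66) on cdHFD. The diet calls stayed at 10 in both genotypes.

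Signs turned only where no call stood in the main analysis. For Pcyt1a on NC and Mat1a on cdHFD, other alternatives gave a call with the main sign. Mat1a, genotype on NC, ranged from -0.0301 to 0.0469 without 1 replicate (-0.000607 without replicate 3), and was -0.00719 with sex as a covariate and -0.0791 in males. Pcyt1a, genotype on NC, was 0.0358 in females. By edgeR's test it was called in males (-0.272, adjusted p = 0.0187) and without replicate 4 (-0.201, adjusted p = 0.0443). On cdHFD, Gnmt was -0.137 to 0.0720 without 1 replicate and 0.0137 in females, Bhmt -0.127 in males, and Mat1a 0.0652 in females. Mat1a on cdHFD was called by edgeR's test in males (-0.383, adjusted p = 0.00462) and without replicate 3 (-0.277, adjusted p = 0.0247). Pcyt1a, genotype by diet, was 0.00929 with DESeq2 size factors, 0.00656 with the stricter filter, 0.0114 by DESeq2, and -0.0568 to 0.0476 without 1 replicate. In diet by sex, Cbs was -0.176 to 0.159 and Ahcy -0.1495 to 0.00225 without 1 replicate, with Ahcy at 0.0236 without the 7 libraries, and Chka at -0.0703 without them. Chdh, sex, was -0.0593 to 0.00974 without 1 replicate.

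No paired analysis was possible because the labels give no replicate numbers that the groups share.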
